A study of Mus musculus with 4 samples.

Results

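The genes described are 6 genes of the B cell lineage, Cd22, Cd79a, Cd79b, Blk, Rag2 and Vpreb1, as they were read in T cell preparations from mice that lack RAG1. They were chosen by annotated symbol, with every probe set of each symbol taken, which gave 7 probe sets for 6 of the 6137 genes that the chips read under a single symbol. The preparations were memory and naive CD8 T cells of the B6.2.16 line, a receptor transgenic line specific for the male antigen HY. For the memory preparation, female B6.2.16 donors lacking RAG1 gave splenocytes that were kept for 4 days with HY peptide and then moved into female RAG1-deficient hosts. After 200 days the cells were taken back out of spleen and lymph nodes with magnetic beads, at a stated purity above 80%. The naive preparation was made from the lymph nodes of RAG1-deficient females of the same line, with over 85% stated as its purity. RAG1 deficiency was thus shared by all donors and hosts, and no preparation from animals with B cells was used here. The sources used here do not give the age of the animals or whether several were pooled. Each preparation was read on an A and a B chip of an Affymetrix mouse set, giving 4 arrays with 1 array per group and chip. The spread between samples is therefore unknown, no test could be run, and every difference compares 1 pair of arrays.

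RAG1 and RAG2 together cut DNA at the antigen receptor loci, and without either protein no receptor gene can be assembled. B cell development then stops in the bone marrow at the pro-B stage, before a heavy chain is made, and mature B cells do not form, while T cells can still arise where a ready-made receptor is supplied as a transgene. Some B lineage genes are switched on before that stop, among them the surrogate light chain genes, the genes of the receptor's signalling chains and the recombinase genes. Others, such as Cd22, reach their full level later, in mature B cells. The genes are also known to be read outside the lineage in places, for example Rag2 in immature thymocytes and Blk in some T cells and plasmacytoid dendritic cells. The comparison addressed whether transcripts of B lineage cells could be seen in the sorted T cell preparations.

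The values are intensities in arbitrary units and can be negative. On the A chip the memory and naive arrays were almost unrelated. Their Spearman coefficient over 6529 gene probe sets was 0.10, against 0.85 over 6540 on the B chip. The 55 controls that the chips have in common correlated at 0.96 between the memory arrays and at 0.21 between the naive arrays. These coefficients are across probe sets, and probe sets are no independent replicates. The A chip was accordingly read for the memory preparation alone, and memory was compared with naive on the B chip alone. As noise limit of an array served the size that 95% of its negative values did not exceed. It was 184 for the memory A array. On the B chip it was 287 for the memory array and 423 for the noisier naive array, and the higher, 423, served as a common limit. Differences between values under it are not read as changes.

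None of the 6 B lineage genes was above the noise limit on any of the 3 arrays used. The count was 0 of 9 values, from 5 probe sets on the memory A array and 2 probe sets on each B-chip array, and 3 of the 9 were below zero. Among all gene probe sets, 26.7% were above the limit on the memory A array, 12.7% on the memory B array and 14.1% on the naive B array. In RNA from a whole preparation, fewer cells of a type and less RNA per cell cannot be told apart, and a value under the limit does not show that a transcript was absent.

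**Figure D1:**
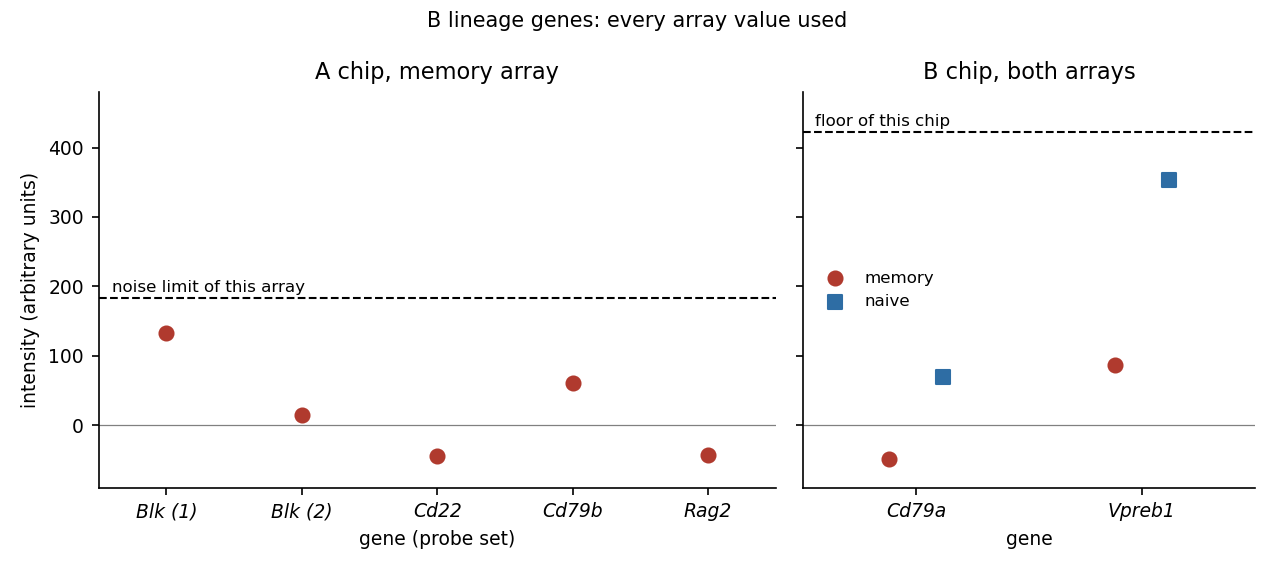
Intensity (arbitrary units) of every probe set of the 6 B lineage genes, on the memory A array (left) and on the memory (circles) and naive (squares) arrays of the B chip (right). Dashed lines are the noise limits of 184 and 423, and all 9 points lie below them. Each point is 1 array, so there are no error bars.

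Cd79a and Vpreb1 were the genes that could be compared between the groups. Cd79a encodes the alpha chain of the pair that carries the signal of the B cell receptor and of its precursor form. Its probe set, x13450_s_at, read -48.6 in memory and 69.5 in naive cells. The memory value was higher than only 16.6% of the gene probe sets of its array, and the naive value stood near the middle, above 54.3%. The difference, memory minus naive, was -118 units. Both values were under the noise limit of 423, so no ratio is given.

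Vpreb1 encodes one part of the surrogate light chain, which stands in for the light chain in the precursor receptor, and is known as a gene of pro-B and early pre-B cells. Its probe set, x05556_s_at, read 87.3 in memory and 353 in naive cells. The naive value came nearest to the limit of all 9, at 83.4% of it and above 83.1% of the gene probe sets of that array, whereas the memory value was at 20.7% of the limit and above 61.9% of its array. The difference was -265 units, and with both values under the limit there is again no ratio. Of all 1760 B-chip genes, 2.33% were called higher and 2.27% lower in memory. A call needed a brighter array of at least 2 times the limit, so neither Cd79a nor Vpreb1 could be called, and nothing is read from their 0 calls.

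The promoters of Cd79a and Vpreb1 are shown because these genes are the pair compared between the groups. That of Cd22 is shown because it holds an exact match to the core motif of the early B cell factor EBF1. They run from 250 bases before to 50 bases after the gene's start, on the gene's strand, from RefSeq for build GRCm38.p6. Of the 6 genes, 4 had an entry in that table, the fourth being Rag2. Capitals mark matches to CANNTG, the E box read by E proteins such as TCF3, and to CCCNNGGG, the core of the EBF1 palindrome, searched on both strands with no overlap between the matches marked. Cd79a lies at chr7:24897247-24897546 on the plus strand, Vpreb1 at chr16:16869206-16869505 on the minus strand and Cd22 at chr7:30878979-30879278 on the minus strand.
Cd79a: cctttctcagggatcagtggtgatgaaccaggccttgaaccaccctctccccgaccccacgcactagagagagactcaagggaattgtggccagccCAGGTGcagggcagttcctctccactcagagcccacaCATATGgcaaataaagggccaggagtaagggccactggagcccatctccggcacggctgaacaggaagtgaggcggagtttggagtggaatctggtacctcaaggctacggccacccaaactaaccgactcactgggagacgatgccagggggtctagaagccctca
Vpreb1: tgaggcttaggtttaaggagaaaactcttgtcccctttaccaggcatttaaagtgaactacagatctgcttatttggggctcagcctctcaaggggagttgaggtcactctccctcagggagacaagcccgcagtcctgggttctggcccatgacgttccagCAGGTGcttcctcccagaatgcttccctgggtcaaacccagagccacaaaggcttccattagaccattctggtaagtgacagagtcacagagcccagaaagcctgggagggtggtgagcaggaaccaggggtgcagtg
Cd22: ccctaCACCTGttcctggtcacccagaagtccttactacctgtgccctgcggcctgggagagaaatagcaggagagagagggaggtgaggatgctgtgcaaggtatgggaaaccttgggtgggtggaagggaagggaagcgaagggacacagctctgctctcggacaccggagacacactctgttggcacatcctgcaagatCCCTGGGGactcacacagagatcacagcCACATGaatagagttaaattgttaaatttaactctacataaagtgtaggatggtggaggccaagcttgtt
The exact EBF1 core was found 1 time in the Cd22 promoter and in 13.7% of all 32851 promoters of this length. It had 0 exact matches in the other entries of these genes. Stretches that depart from these letters, such as ctcaaggg in the Cd79a and Vpreb1 windows, were not counted, so the 0 does not show that an EBF1 site is lacking. An E box was present in 72.3% of all promoters and in all 4 of these, with 2 matches each in Cd22, Cd79a and Rag2 and 1 in Vpreb1. These matches describe letters in a window, and nothing about binding was measured.

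On the memory A array, Cd79b, the beta chain that pairs with the product of Cd79a, read 61, which was 33.2% of the noise limit of 184 and above 48.8% of the gene probe sets. Cd22 encodes a sialic acid-binding receptor that dampens B cell receptor signals. It read -44, above 7.29% of the gene probe sets of the array. Rag2, the recombinase subunit whose own gene is intact in RAG1-deficient mice, read -43, above 7.41%. Cd22 and Rag2 ranked near the bottom of the array and Cd79b close to its middle. All of these values were under the noise limit, so nothing is read from their order.

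Blk, a Src family kinase of the B cell receptor pathway, was the only one of the 6 genes with more than 1 probe set. Its probe set AA204265_at read 133, at 72.3% of the limit and above 66.0% of the array, and its probe set M30903_s_at read 15, at 8.15% of the limit and above 28.7%. The Blk probe sets therefore differed in rank, and both were under the limit. Each of the other genes rested on a single probe set, and 6 of the 7 probe sets are of the class whose name ends in _s_at, so a probe set that fails to read its gene could not be recognised from these values.

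**Figure D2:**
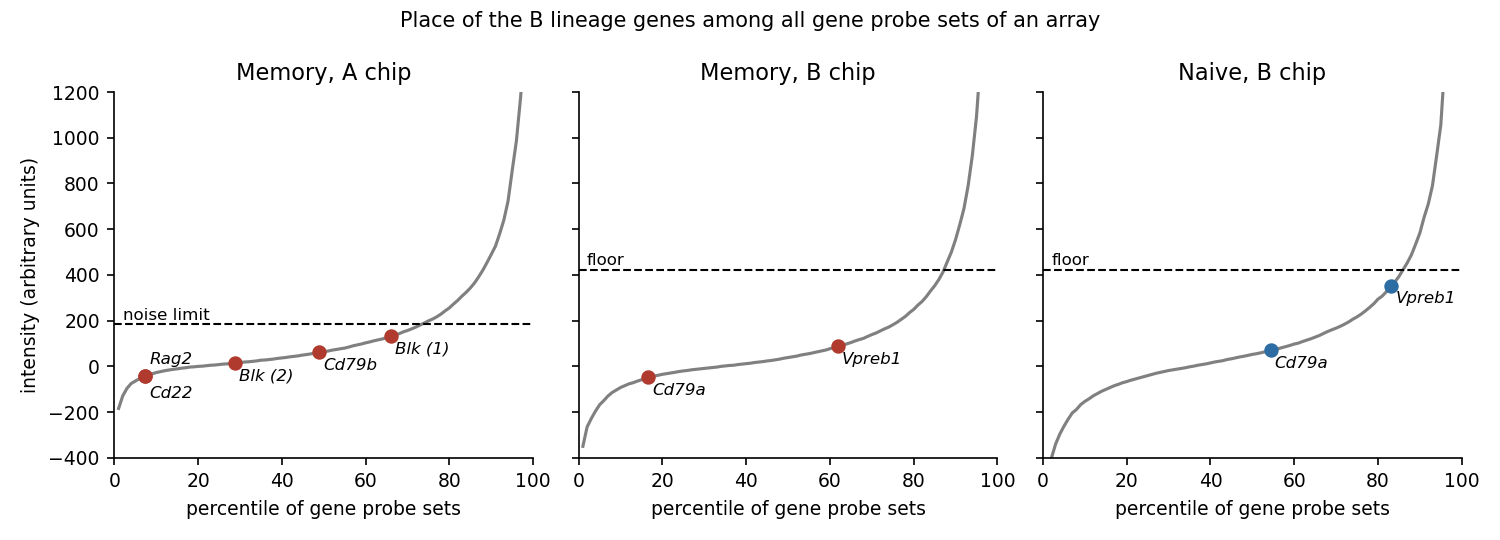
Intensity (arbitrary units) against the percentile among gene probe sets for the memory A, memory B and naive B arrays (grey curves), with the B lineage genes as points. Points range from percentile 7.29 (Cd22) to 66.0 (1 Blk probe set) in memory and lie at 54.3 (Cd79a) and 83.1 (Vpreb1) in naive, where the curve is still under the dashed limit.

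The partners of these genes gave further readings. Igll1, the other part of the surrogate light chain and partner of Vpreb1, read -86.4 in memory and 44.3 in naive on the B chip. Dntt, the polymerase that adds bases at receptor gene joints, had 2 probe sets, which read 41.7 and -44.7 in memory and 140 and 386 in naive, all under the limit of 423. Rag1, the gene that is disrupted in these mice and the partner of Rag2, read 9 on the memory A array. The sources used here do not say whether its probes lie in the deleted part, so this value checks no label. Vpreb3, which binds immature receptor chains, read -59 there.

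Of the 13 genes listed for the precursor receptor and recombination, 9 were read. On the memory A array 0 of 4 were above the limit, with values from -59 to 78, against 29.5% of all 4775 genes. The 4 include Prkdc (78) and Xrcc6 (4), DNA repair genes that are not specific to the B lineage. The 0 is therefore no count of B precursor genes alone. On the B chip 2 of 6 were above it on 1 or both arrays, against 26.2% of all 1760 genes. The pair were Hmgb1 and Hmgb2, chromatin proteins that are made in most cells and that also assist the recombinase. Prkdc and Xrcc5, repair genes that are likewise not specific to the B lineage, were under the limit on both B-chip arrays. Prkdc read -250 in memory and -311 in naive, and Xrcc5 read -21.8 in memory and -14.1 in naive. Hmgb1 read 1196 in memory and 864 in naive (log2 ratio 0.47). Hmgb2 read 317 in memory, under the limit, and 658 in naive, so that its log2 ratio of -0.64 is only a bound. Neither Hmgb1 nor Hmgb2 was called.

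Among the transcription factors, Pax5 and Ebf1, which define the B lineage, were under the limit, and so were factors that T cells make as well. Pax5, which commits cells to the B lineage, read 20.8 in memory and -20.2 in naive on the B chip, and Ebf1 read -24 on the memory A array. Tcf3, which T cells make as well, read -93.3 in memory and 44.3 in naive. Of 13 factors on the memory A array 3 were above the limit, against 29.5% of all 4775 genes. Spib, a factor of B cells and plasmacytoid dendritic cells, read 586, Irf8, which B cells share with monocytes and dendritic cells, read 390, and Spi1, the PU.1 factor of B and myeloid cells, read 377. The other 10 read from -113 to 153. Among them were Ikzf1 (45 and 6 by its probe sets), Foxp1 (-30) and Id3 (19), which T cells make as well. On the B chip 1 of 5 was above the limit, against 26.2% of all 1760 genes. This was Lef1, which pro-B cells share with naive T cells. It was lower in memory, with 256 (under the limit) against 1549 in naive, at least 3.66-fold, a call lost when the limit was doubled (log2 ratio -0.87).

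Of 16 B cell surface receptor genes on the memory A array, 7 were above the limit, against 29.5% of all 4775 genes. The brightest of the 7 were the chemokine receptor Cxcr4 (1198), the cytokine Ltb (1023), the activation marker Cd83 (961) and Ly86 (712), the partner of a Toll-like receptor homologue. All of these are also made by T cells or myeloid cells. Ms4a1, which encodes the B cell antigen CD20, was read by 2 probe sets that disagreed. Its probe set aa218177_s_at read 301, above the limit of 184 and above 82.6% of the array, and its probe set M62541_s_at read -19. Their mean of 141 was under the limit. The 9 genes under the limit read from 9 to 152, among them Cr2, Fcer2a and Cd40. On the B chip 2 of 5 were above the limit, against 26.2% of all 1760 genes. Cd24a read 531 in memory and 579 in naive and Cxcr4 read 663 in memory and 486 in naive, both within 2-fold. The sign of the Cd24a log2 ratio, -0.13, turned with median-ratio scaling.

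Of 11 genes of B cell receptor signalling on the memory A array, 6 were above the limit, against 29.5% of all 4775 genes. The 6 were led by the phosphatase Ptpn6 (858), the adaptor Grb2 (782), the exchange factor Vav1 (463) and the kinase Fyn (353), all of which T cells use as well. Btk, a kinase of B and myeloid cells that T cells lack, read 54. On the B chip 2 of 5, the kinase Syk and the tetraspanin Cd81, were above the limit, against 26.2% of all 1760 genes. Cd81 read 3174 in memory and 2055 in naive, a log2 ratio of 0.63 and within 2-fold, and it passed 2-fold with quantile normalization (1.18). Syk, which acts next to the CD79 chains in B cells and below Fc receptors in macrophages, was 3.29-fold higher in memory, with 1650 against 501 in naive. This call was lost when the noise limit was doubled (log2 ratio 0.96, against 1.72).

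Macrophage markers stood higher in the same memory array. All 12 macrophage and monocyte genes on the B chip had a higher value in memory, but how many of all genes did was not counted. Of the 12, 6 were called higher, against 2.33% of all 1760 B-chip genes, or 41 of the 462 above the limit. Their summed level was 28693 in memory and 16558 in naive. Of the 12, 11 were above the limit in memory and 10 in naive, against 367 and 411 of all 1760 genes. Ctsl was under it on both arrays (295 in memory and 148 in naive) and Apoe in naive (1002 in memory and 260 in naive). On the memory A array 6 of 9 were above the limit, against 29.5% of all 4775 genes, and Mpeg1 (96), Marco (103) and Fcgr1 (113) were under it. The Mpeg1 probe sets of the chips disagreed, since that of the B chip read 3665 in memory and 954 in naive. A value under the limit on the memory A array can thus belong to a gene that reads brightly on the B chip. Their part in the Syk difference and in the A-chip values of Spi1, Irf8 and Ly86 was not tested.

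**Figure D3:**
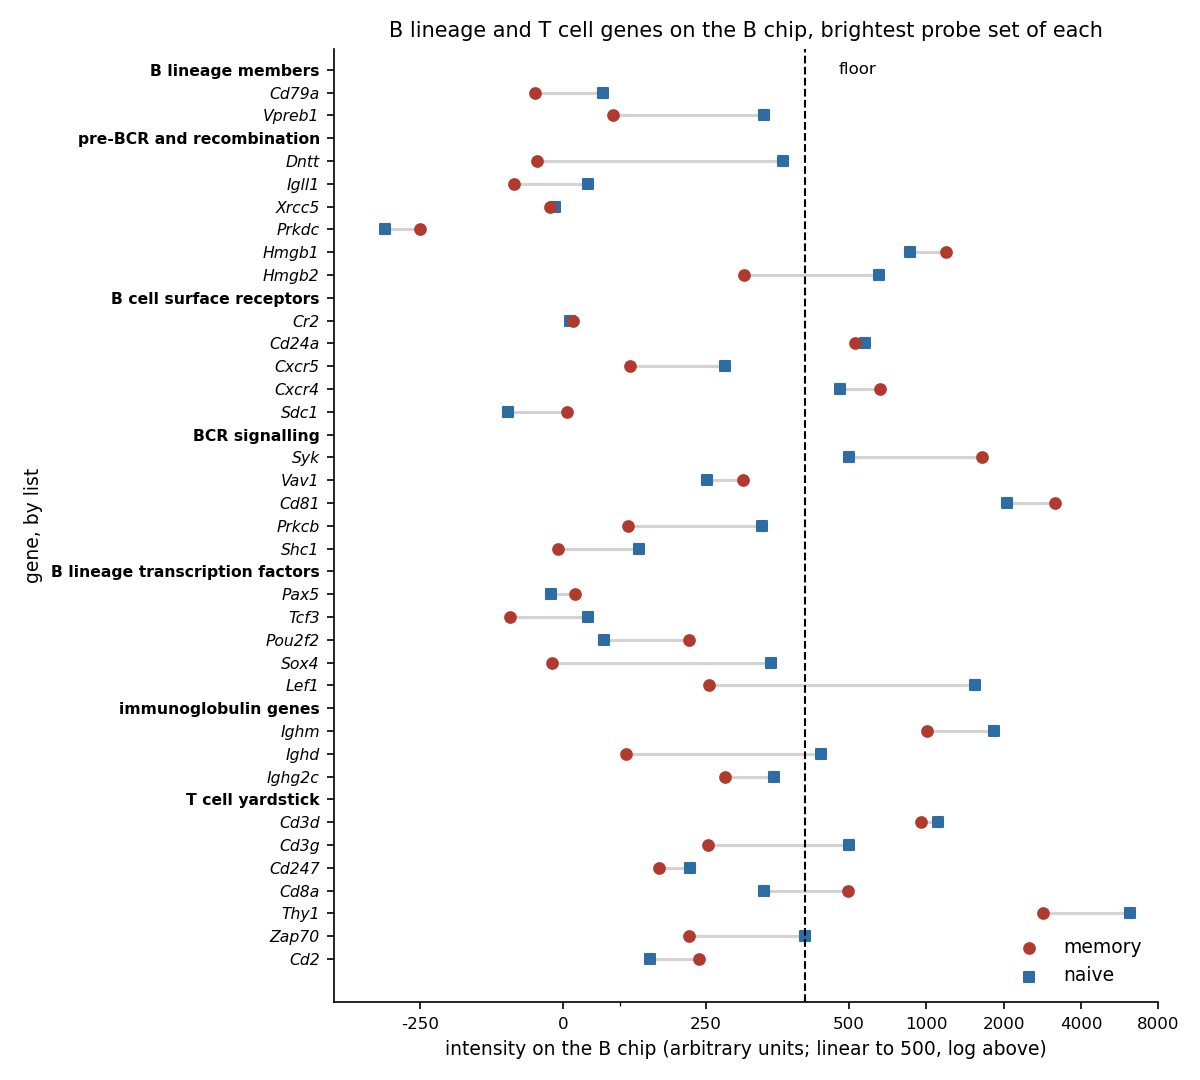
Intensity on the B chip (arbitrary units, linear to 500 and logarithmic above) in memory (circles) and naive (squares) for the B lineage genes, the other B lineage lists and T cell genes. Each gene is shown by its brightest probe set, with 1 array per group. The points of Cd79a and Vpreb1 lie left of the dashed limit of 423, as do those of Igll1, Dntt and Pax5, whereas Syk, Cd81, Hmgb1, Ighm, Cd3d and Thy1 lie right of it on both arrays.

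Among the immunoglobulin genes, Ighm, the constant region of the mu heavy chain, was above the limit on both B-chip arrays with its probe set X03690_s_at, which read 1007 in memory and 1836 in naive. The log2 ratio was -0.87, within 2-fold. Its other B-chip probe set read 36.7 in memory and 93.7 in naive. On the memory A array 1 of 3 Ighm probe sets was above the limit, at 297, while the others read -5 and -86. The brighter one is a sequence-family probe set, designed to match related genes, and without that class or with the mean of all probe sets (68.7) Ighm was under the limit there. Ighd, the delta constant region, read 111 in memory and 451 in naive, the naive value just above the limit, so that its log2 ratio of -0.094 is only a bound. The remaining immunoglobulin genes on the memory A array, Igha, Ighg3, Igk, Iglc1 and Jchain, read from -68 to 80, all under the limit.

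**Figure D4:**
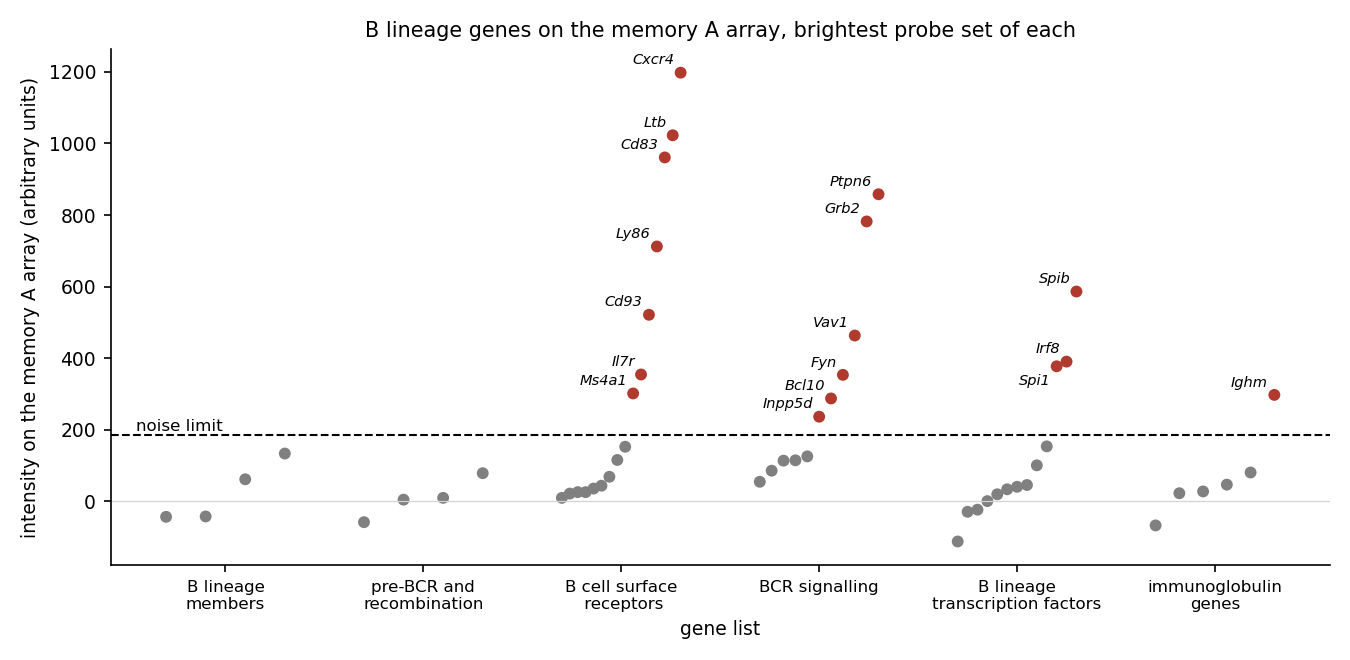
Intensity on the memory A array (arbitrary units) of the brightest probe set of each gene, by list, with genes above the noise limit of 184 (dashed) coloured and named. All 4 B lineage genes read there and all 4 other precursor receptor and recombination genes lie under the limit. Above it lie 7 of 16 surface receptor and 6 of 11 signalling genes, and 29.5% of all 4775 genes.

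Over the 5 further B lineage lists together, 17 of 50 genes (34.0%) were above the limit on the memory A array, against 29.5% of all genes, and 9 of 24 (37.5%) on the B chip, against 26.2% of all genes. Of the 9, 1 was higher, 1 lower and 7 neither, against 41 higher, 40 lower and 381 neither of all 462 B-chip genes above the limit. The median log2 ratio of the 9 was -0.094, against -0.12 over the 462. Among the genes most tied to the lineage, Pax5, Ebf1 and Igll1 were under the limit like the 6 genes described here. Above it were 1 of 2 Ighm probe sets on both B-chip arrays, Ighd on the naive B array, and Spib and 1 of 2 Ms4a1 probe sets on the memory A array.

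T cell genes set the scale on which these values can be read, since T cells were the cells sorted. On the B chip 5 of 7 T cell genes were above the limit on 1 or both arrays, against 26.2% of all 1760 genes. On the memory A array 4 of 6 were, against 29.5% of all 4775 genes. Cd3d, a chain of the T cell receptor complex, read 959 in memory and 1115 in naive. Thy1, a surface protein of mouse T cells, read 2848 in memory and 6184 in naive. Cd3g read 254 in memory and 502 in naive, and Cd8a, the coreceptor chain that defines these cells, read 498 in memory and 352 in naive, so that each was under the limit on 1 array. On the memory A array, with its limit of 184, Cd3e was the brightest of these genes at 317. Cd247 read 240, Txk 221 and Cd28 186 there, while Cd5 (110) and Cd6 (15) were under the limit. Transcripts of the sorted cells themselves were therefore not all above the noise limit. No array of B cells was used here, so the limit cannot be turned into a share of cells.

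**Figure D5:**
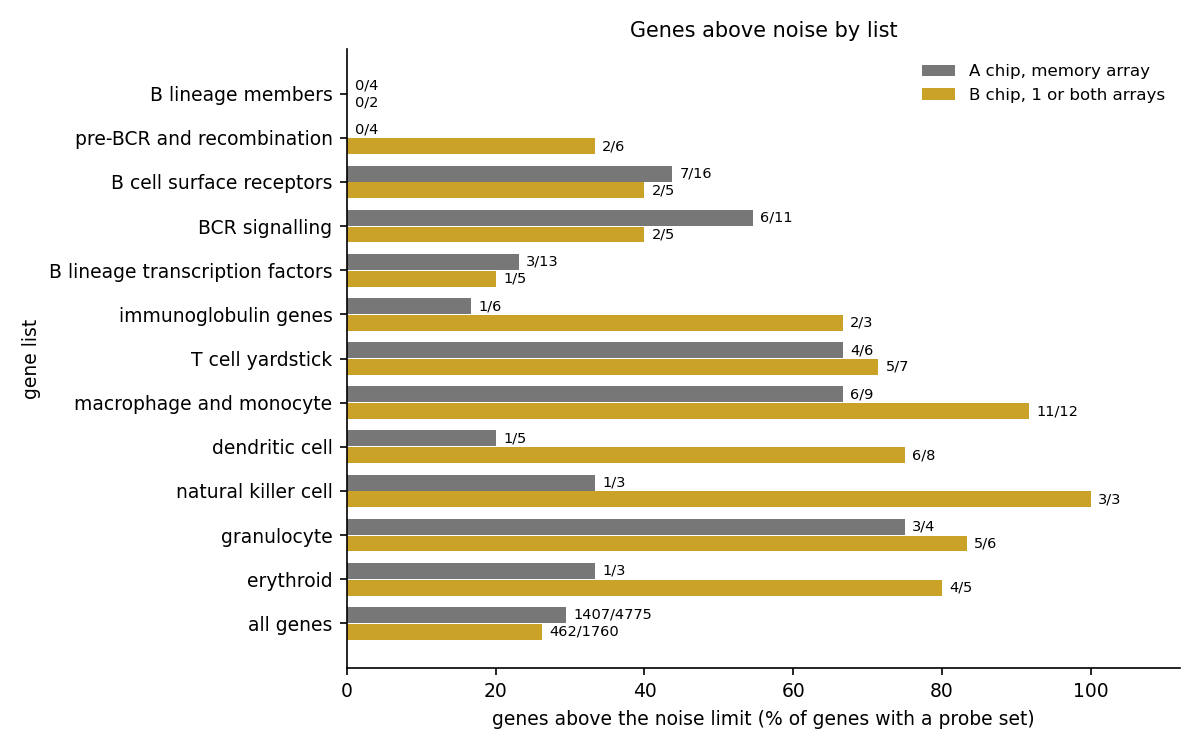
Percentage of genes above noise on the memory A array (grey) and on 1 or both B-chip arrays (yellow), by gene list, with the number above and the number read beside each bar. The 6 B lineage genes are at 0 of 4 and 0 of 2, against 1407 of 4775 and 462 of 1760 over all genes.

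Genes listed for other blood cell types were also read, beside shares above the limit over all genes of 26.2% (B chip) and 29.5% (memory A array). On the B chip 5 of 6 granulocyte and 4 of 5 erythroid genes were above the limit on 1 or both arrays, and on the memory A array 3 of 4 and 1 of 3. Of the dendritic cell list 6 of 8 were above it on the B chip and 1 of 5 on the memory A array. These were MHC class II chains, their loading chains and Cd74, which macrophages and B cells make as well. Of the 6, 2 were called higher in memory (H2-Ab1 and H2-DMb1), 1 lower (Cd74, 3068 against 9507 in naive) and 3 neither. Over all 462 B-chip genes above the limit, 41 were higher and 40 lower. Flt3 was under it (13.9 in memory and -22.2 in naive on the B chip, 68 on the memory A array). Zbtb46 (121), Ciita (104) and H2-Ob (-201) were under it on the memory A array. Of the natural killer cell list 3 of 3 were above it on the B chip, Gzma on both arrays and Klra4 and Klra8 on the naive array alone, and 1 of 3 on the memory A array, Eomes (205), while Klrb1c read 18 there. Gzma and Eomes are also made by CD8 T cells. Of the plasmacytoid dendritic cell markers, Ly6d read 37.7 in memory and 259 in naive, under the limit, Tcf4 read 153 on the memory A array, also under its limit, and Irf8 was above it.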

How the data were processed

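Per the labels, Trizol-extracted RNA of each preparation was turned into cRNA and hybridised. The deposited values are intensity values, 1 whole number per probe set. They had a 2% trimmed mean of 150.2 to 150.4 on each array, so they appeared scaled. The sources used here name neither the software that made them nor a genome build. Samples were grouped by title. Gene symbols were those of the platform's annotation, and comparison by Entrez number with RefSeq GRCm38.p6 changed 0 of them. Probe sets with 1 symbol numbered 5541 on A and 2001 on B. Those with several symbols (197 and 27) or none listed (791 and 4512) were not named. The 55 control probe sets of each chip were left out.

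B-chip arrays were brought to a common 2% trimmed mean (factors 0.993 and 1.01), and A-chip values were used as deposited. For log2 ratios, values under the noise limit were raised to it. A gene, read by its brightest probe set, was called when its brighter array reached 2 times the limit and the ratio 2-fold. With 1 array per group there was no test, and precision is limited by the number of arrays. The calling of ratios was tried on simulated data with changes planted in bright probe sets only, which does not bear on genes under the limit. Alternatives varied scaling, limit, threshold and probe sets (python 3.11.15, statsmodels 0.14.6).

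The 6 genes, the lists and the rules were chosen with earlier results of these data known. Named genes were the 6 genes by all probe sets, every further B lineage gene called on the B chip, the 4 brightest of each list on the memory A array above its limit, and, whatever their values, a set of lineage and T cell genes, of which 1 is left out of the text. Others are examples chosen after their values were seen. The rule for genes of like pattern applied to members above the limit on the B chip, of which there were 0.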

Additional observations from a re-analysis of the deposited data

Results flagged for a closer look

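Cd22 read 434 on the naive A array, above that array's own noise limit of 296. The array was not used in any comparison above because its values hardly follow gene names, and this value is given for that reason only as a reading of an unused array. Of the 5 probe sets of the B lineage genes there, Cd22 was the 1 above the limit, and 18.4% of all gene probe sets of that array were above it. Rag2 read 277 there, and the others lay between 6 and 128.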

How the results depend on the processing

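No paired analysis was possible because each chip held 1 memory and 1 naive array, and leaving out an array was likewise not possible. Of the 6 B lineage genes, 0 of 2 on the B chip and 0 of 4 on the memory A array were above the noise limit with the limit doubled, without sequence-family probe sets and with the mean of all probe sets. The same 0 was found on the B chip under no scaling and under median-ratio, quantile and intensity-dependent scaling and with each array against its own limit (chosen after seeing the data), and on the memory A array with the limit of the noisier A array. With the limit halved, 1 gene on the B chip (Vpreb1, by its naive value of 353 against 211, with a log2 ratio of -0.74 as a bound) and 1 on the memory A array (Blk, 133 against 92) passed it. Of the further B lineage genes on the B chip, 16 were above the halved and 5 above the doubled limit, against 9. Higher calls numbered 2 with quantile normalization, 0 with the doubled limit and 2 at 1.5-fold, against 1. Lower calls numbered 3 with the halved limit, 0 with the doubled limit and 2 at 1.5-fold, against 1. On the memory A array 24 were above the halved and 11 above the doubled limit, against 17. There, 15 were above with the limit of the noisier A array and 15 with the mean of all probe sets. The Cd24a log2 ratio turned to 0.024 with median-ratio scaling. A higher or lower limit moves these counts by its own construction, and the cause of the other changes was not tested. The Thy1 ratio of -1.12 fell inside 2-fold with median-ratio (-0.97), quantile (-0.34) and intensity-dependent (-0.14) normalization.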
